A study of Homo sapiens with 12 samples.

Results

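The IFI6 and IFI27 family comprises small hydrophobic interferon-stimulated proteins that sit in the membranes of mitochondria, the endoplasmic reticulum or the nuclear envelope. Its members here were chosen by gene symbol, and all 4 (IFI6, IFI27, IFI27L1 and IFI27L2) were found among the 60099 genes of the gene table. IFI6 is known to oppose apoptosis at the mitochondrion and to act with the chaperone HSPA5 against flaviviruses, whereas IFI27 is known to act with the ubiquitin ligase subunit SKP2 against hepatitis C virus and to drive the export of the receptor NR4A1 from the nucleus through XPO1. IFI27L1 and IFI27L2 are the less studied relatives of IFI27. Type I interferon switches on such genes through the receptor IFNAR1/IFNAR2, the kinases JAK1 and TYK2 and the factor ISGF3, a complex that includes STAT2 and IRF9 and binds a promoter element called the ISRE.

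RNA of Cal27 and HN30, established head and neck squamous cell carcinoma (HNSCC) cell lines, was sequenced without treatment and at 24 h with 20 or 200 ng/ml IFNα, a type I interferon. Letters A and D mark the untreated controls, B and E the samples at 20 ng/ml (labelled low dose) and C and F those at 200 ng/ml (labelled high dose), each with replicates 1 and 2, so that 12 samples fall into 6 groups of 2. Letters A to C and D to F are treated as the 2 lines and called line sets A-C and D-F, since the labels do not say which line is which. The labels do not say that the replicates are separate cultures, so the p-values measure the spread between these samples, which may be technical. Levels are given in TPM, a unit scaled for transcript length and library size that can be compared between genes. Called means past both limits in edgeR's quasi-likelihood test of the estimated counts, a change of 2-fold or more and an adjusted p-value no higher than 0.05.

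IFI6 (ENSG00000126709) lies alone on the minus strand of chromosome 1, at 27666061 to 27672218 of GRCh38, and has 3 annotated transcripts, all coding. The other 3 members lie side by side on chromosome 14. IFI27L1 (ENSG00000165948) spans 94081282 to 94103846 on the plus strand with 13 transcripts, 10 of them coding. IFI27 (ENSG00000165949) follows on the same strand at 94104836 to 94116698 with 15 transcripts, also 10 of them coding. IFI27L2 (ENSG00000119632) lies beyond it on the minus strand at 94127779 to 94130253, with 6 transcripts of which 2 are coding. The gap between IFI27L1 and IFI27 is 989 bases, and that between IFI27 and IFI27L2 is 11080 bases. Of the 31-base words in their transcripts, IFI27 and IFI27L2 share 1 word and no other members share any, so that long exact matches between members are rare.

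The promoters are shown for the pair of members that responded to IFNα. Each sequence holds the 250 bases before a RefSeq start site on GRCh38.p14, 5′ to 3′ on the strand of the gene. The capitals mark the ISRE core GAAANNGAAA on either strand.

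IFI6, chr1:27672193-27672442, minus strand: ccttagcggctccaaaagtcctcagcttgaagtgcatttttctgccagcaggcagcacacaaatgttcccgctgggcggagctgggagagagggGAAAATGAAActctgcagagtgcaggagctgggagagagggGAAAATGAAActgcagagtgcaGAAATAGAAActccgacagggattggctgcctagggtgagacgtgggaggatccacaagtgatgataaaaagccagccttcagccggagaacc
IFI27, chr14:94110486-94110735, plus strand: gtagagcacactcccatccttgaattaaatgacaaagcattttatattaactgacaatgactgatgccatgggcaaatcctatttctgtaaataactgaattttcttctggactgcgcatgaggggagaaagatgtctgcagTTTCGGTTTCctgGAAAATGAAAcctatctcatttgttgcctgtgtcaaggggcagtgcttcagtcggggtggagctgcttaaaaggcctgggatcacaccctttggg

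The IFI6 window held 3 ISRE cores, which begin at positions -156, -115 and -93 relative to the start. The first and second lie in a direct repeat of 29 bases, ggagctgggagagaggggaaaatgaaact, whose copies begin at -173 and -132. The IFI27 window shown held 2 cores on opposite strands, at -108 and -95, and the STAT element TTCNNNGAA once, as TTCCTGGAA, overlapping both. IFI27 has another RefSeq start, from which the same cores lie at -187 and -174 and the STAT element at -180. In the windows of 300 bases (250 before and 50 after the start) IFI27L1 and IFI27L2 had 0 matches to either element. Of 35116 such windows over all genes in the table, 3.574% held at least 1 ISRE core, 0.259% at least 2, and 7.657% at least 1 TTCNNNGAA, both strands searched. The base composition also differed within the family. The 250 bases contained 6 CpG dinucleotides in IFI6 and 3 in IFI27 (4 at its other start), against 22 in IFI27L1 and 19 in IFI27L2. A match of letters is a description of the window and not a bound site.

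IFNα raised IFI6 and IFI27 in both line sets and at both doses, whereas IFI27L1 and IFI27L2 did not pass the test at either dose. Before treatment the 4 genes lay between 5.31 and 29.7 TPM and their ranges overlapped. At 200 ng/ml IFI6 had the highest level of the family in every sample and IFI27 the next highest.

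For IFI6, the controls were at 29.7 and 29.6 TPM in A-C and at 8.25 and 5.31 TPM in D-F. At 20 ng/ml the level was 372 and 376 TPM in A-C and 391 and 364 TPM in D-F, and at 200 ng/ml it was 433 and 394 TPM in A-C and 445 and 473 TPM in D-F. No treated sample overlapped a control, and the line sets, apart before treatment, lay close together after it. The share of all genes separated in this way is not given here. The mean went from 18.2 ± 13.2 to 436 ± 32.8 TPM at 200 ng/ml (SD, n = 4 each), which moved IFI6 from rank 7499 to rank 189 of 60099 genes by mean TPM. In the fit this was a log2 fold change of 4.89 ± 0.11 (SE), or 29.7-fold, with an adjusted p-value of 2.5527e-09 in edgeR. At 20 ng/ml it was already 4.68 ± 0.11.

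For IFI27, the controls were at 24.7 and 16.2 TPM in A-C and at 21.3 and 20.3 TPM in D-F. At 20 ng/ml the level was 133 and 147 TPM in A-C and 255 and 224 TPM in D-F, and at 200 ng/ml it was 125 and 103 TPM in A-C and 219 and 212 TPM in D-F. All treated samples lay above all controls, and the treated D-F samples all lay above the treated A-C samples. The shares of all genes with these separations are not given here. The mean rose from 20.6 ± 3.50 to 165 ± 59.4 TPM at 200 ng/ml (SD, n = 4 each). The fitted log2 fold change was 2.98 ± 0.07 (SE), or 7.87-fold, at 200 ng/ml and 3.04 ± 0.07 at 20 ng/ml, with edgeR adjusted p-values of 3.63351e-09 and 3.89995e-09.

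For IFI27L1, the controls were at 16.9 and 8.64 TPM in A-C and at 21.6 and 22.6 TPM in D-F. At 20 ng/ml the level was 13.0 and 16.2 TPM in A-C and 25.0 and 31.5 TPM in D-F, and at 200 ng/ml it was 13.8 and 12.9 TPM in A-C and 41.8 and 35.0 TPM in D-F. In A-C the dose groups overlapped, whereas in D-F, with 2 samples per dose, they did not and their order followed the dose. The share of all genes with such an order is not given here. On the counts the log2 fold change for 200 ng/ml came to 0.42 ± 0.20 (SE), with an interval of ±2 SE from 0.02 to 0.82 and an adjusted p-value of 0.242. It was 0.65 without A1 and 0.24 without A2, with adjusted p-values from 0.0662 to 0.509 over the 17 alternatives. Within D-F alone it was 0.73 ± 0.28 with an adjusted p-value of 0.185, so the ordering in D-F did not pass the test.

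For IFI27L2, the controls were at 6.35 and 9.91 TPM in A-C and at 22.9 and 21.0 TPM in D-F. At 20 ng/ml the level was 8.23 and 6.95 TPM in A-C and 26.1 and 26.1 TPM in D-F, and at 200 ng/ml it was 6.88 and 3.93 TPM in A-C and 21.7 and 23.0 TPM in D-F. Every D-F sample lay above every A-C sample at all doses. In D-F both samples at 20 ng/ml lay above the controls and those at 200 ng/ml. In A-C both samples at 200 ng/ml lay below those at 20 ng/ml in TPM. On counts normalized with edgeR (TMM) the order in A-C did not hold, with C1 (200 ng/ml) at 3.06 above B2 (20 ng/ml) at 2.71. Samples at 200 ng/ml overlapped the controls in both line sets. How many of all genes show such orders is not given here. The fitted value for 200 ng/ml was a log2 fold change of -0.23 ± 0.20 (SE), with an interval of ±2 SE from -0.62 to 0.17 and an adjusted p-value of 0.555. It was -0.34 without A1, -0.082 without A2, -0.46 without C1 and -0.055 without C2, with adjusted p-values from 0.184 to 0.936 over the 17 alternatives. The estimate rests on few reads, between 17 and 112 counts per sample, against 55 to 177 for IFI27L1, 139 to 1540 for IFI27 and 41 to 2841 for IFI6.

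**Figure D1:**
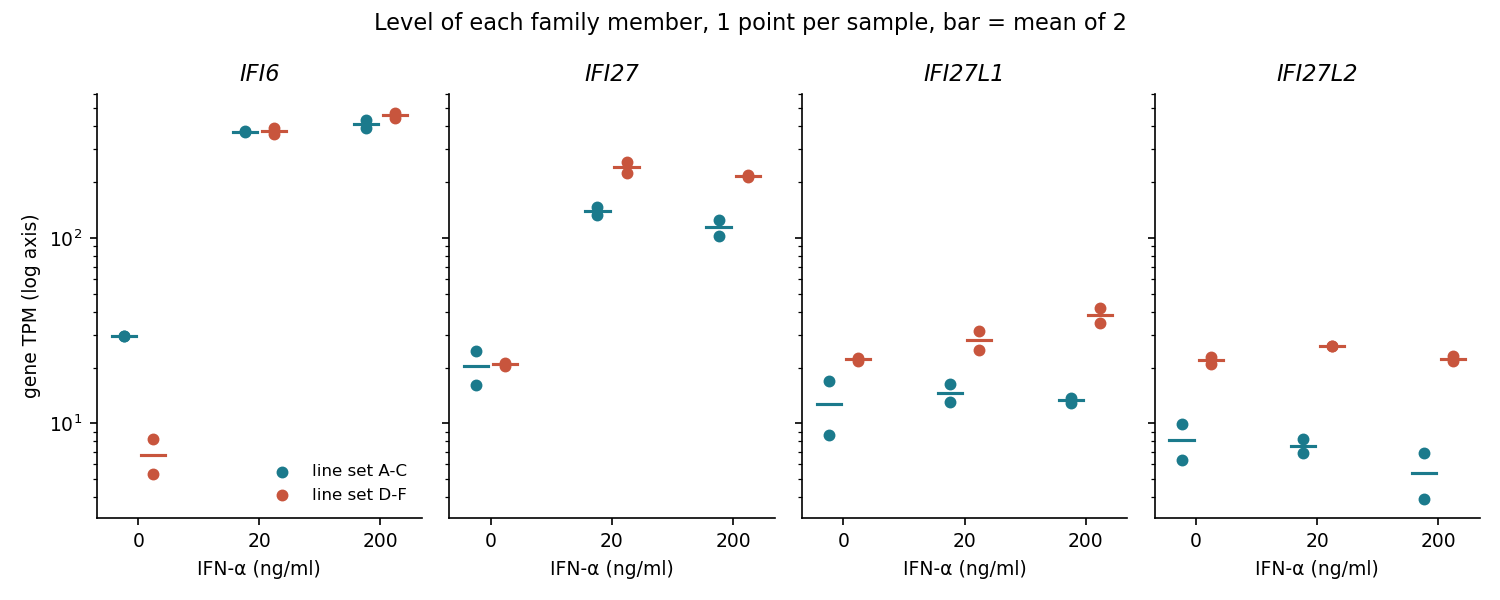
Gene TPM on a log axis against IFNα dose in ng/ml for the 4 members, with 1 point per sample, a bar at the mean of each pair and colours for the line sets. IFI6 goes from 5.31 to 29.7 TPM in the controls to between 394 and 473 TPM at 200 ng/ml and IFI27 from 16.2 to 24.7 to between 103 and 219 TPM, while the points of IFI27L2 separate by line set at every dose.

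Counted over the family, 2 of 4 members were called higher at 200 ng/ml, where 1.58% of the 19944 genes tested were called higher. All 4 members passed the filter on low counts. None of the 4 was called lower, with edgeR, with DESeq2 or with edgeR at an unadjusted p under 0.05, and 0.552% of genes were. At 20 ng/ml IFI6 and IFI27 were again called, against 0.963% of genes called higher. The line sets gave the same calls separately at 200 ng/ml, 2 of 4 in A-C against a background of 1.41% and 2 of 4 in D-F against 1.67%. The total count was between 12670755 and 16056734 in the controls and between 10517448 and 11854183 at 200 ng/ml, so every control was deeper than every sample at the higher dose, and the part of depth in these values was not tested.

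The higher dose added little. Against 20 ng/ml, the log2 change at 200 ng/ml was 0.21 ± 0.09 for IFI6 and -0.06 ± 0.06 for IFI27 (SE), and 0 of 4 members were called by edgeR, where 0.0451% of genes were called in either direction. At an unadjusted p under 0.05 only IFI6 passed, as did 1846 of the 19944 genes tested, and its adjusted p-value was 0.505 in edgeR. DESeq2 called 0 as well. On the TPM scale IFI6 was higher at 200 than at 20 ng/ml in all samples of both line sets. IFI27 was lower in TPM at 200 than at 20 ng/ml within each line set. On counts normalized with edgeR (TMM) this order of IFI27 held in A-C only. In D-F the doses overlapped on that scale, with F1 (200 ng/ml) at 123.4 above E2 (20 ng/ml) at 122.5. How many of all genes show such orders is not given here. The log2 change at 200 against 20 ng/ml was 0.16 ± 0.20 for IFI27L1 and -0.21 ± 0.20 for IFI27L2 (SE), neither of which passed.

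**Figure D2:**
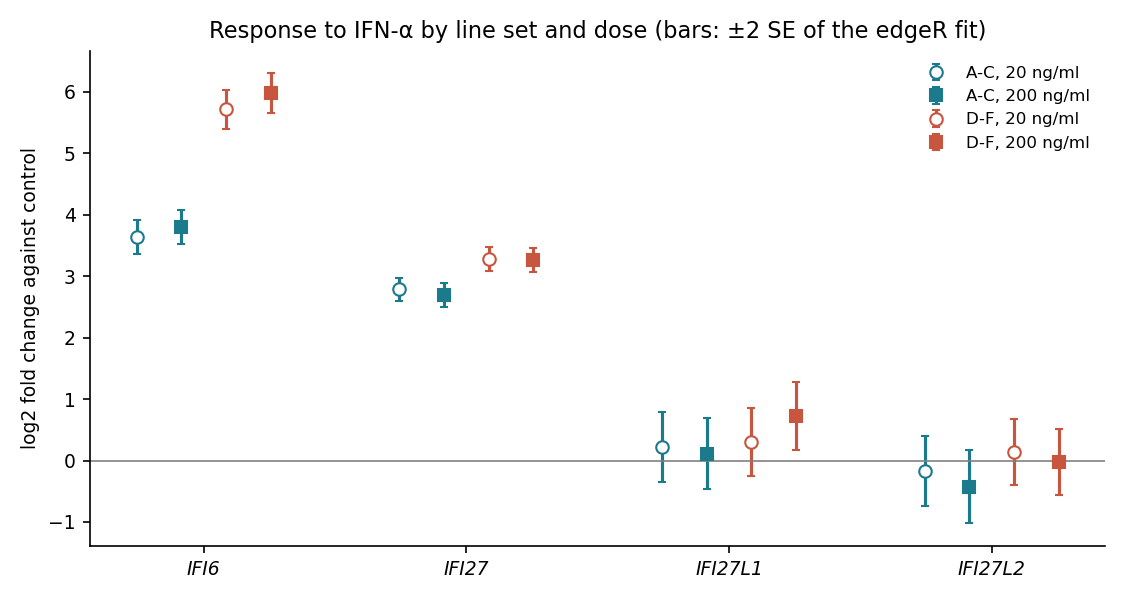
Log2 fold change of the estimated counts against the untreated controls of the same line set, for each member, dose and line set, with bars of ±2 SE from edgeR. IFI6 reaches 3.80 in A-C and 5.98 in D-F at 200 ng/ml, IFI27 2.69 and 3.26, and the bars of IFI27L2 cross 0 in all 4 comparisons.

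The response of IFI6 differed between the line sets. At 200 ng/ml IFI6 rose 13.9-fold in A-C (log2 3.80 ± 0.14) and 63.3-fold in D-F (log2 5.98 ± 0.16), a difference of 2.18 ± 0.20 on the log2 scale (SE, D-F minus A-C) with an edgeR adjusted p-value of 0.00232. At 20 ng/ml the difference was 2.07 ± 0.20, with an edgeR adjusted p-value of 0.0028. IFI6 was the only member called for this difference, 1 of 4 at each dose, against 0.998% of all genes at 200 ng/ml and 0.231% at 20 ng/ml. The levels show where the line sets parted: the mean of IFI6 was 29.6 TPM in untreated A and 6.78 TPM in untreated D, but 413 TPM in C and 459 TPM in F. For IFI27 the difference at 200 ng/ml was 0.57 ± 0.13 with an adjusted p-value of 0.0625, and it was under 2-fold. The differences of IFI27L1 (0.62 ± 0.40) and IFI27L2 (0.40 ± 0.40) did not pass.

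Untreated cells of the line sets were also compared directly, D against A. IFI6 was lower in D by 4.76-fold (log2 -2.25 ± 0.15, SE, adjusted p-value 3.46411e-06 in edgeR). IFI27L2 was higher in D by 2.24-fold (log2 1.17 ± 0.28, adjusted p-value 0.00658). These were 2 of 4 members, where 26.6% of all genes were called in either direction. IFI27 (0.10 ± 0.10) and IFI27L1 (0.60 ± 0.28) were not called. The calls of the less abundant members depended on 1 control: without A1, the log2 change of IFI27L2 was 0.94, under 2-fold, and that of IFI27L1 was 1.07 with an adjusted p-value of 0.0176, past the threshold. Over the 17 alternatives to this comparison the adjusted p-value of IFI27L2 ranged from 0.0029 to 0.0499 and that of IFI27L1 from 0.0176 to 0.524. The response of IFI6 and its untreated difference share the control samples and are not independent.

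Members called at 200 ng/ml were compared with uncalled ones inside each sample by the log2 ratio of their TPM values. This ratio removes any factor common to a library. The ratio of IFI6 to IFI27L1 lay between -2.09 and 1.77 in the controls and between 3.41 and 4.97 at 200 ng/ml, and the mean change within line sets was 4.49. IFI6 gained 5.25 over IFI27L2 on the same scale, IFI27 gained 2.47 over IFI27L1 and 3.23 over IFI27L2, and IFI6 gained 2.02 over IFI27. Each of these 5 of 6 pairs reached a two-sided p of 0.0556 in an exact permutation test within line sets, the smallest that its 36 arrangements can give, so the design cannot pass 0.05, and the adjusted value over the 6 pairs was 0.0667. The ratio of IFI27L1 to IFI27L2 changed by 0.76, with p = 0.111 in the exact permutation test. This value depended on single A-C samples: it was 1.16 without A1, where the exact permutation p was 0.0556 as for the other pairs, and 0.36 without A2, with p = 0.333 in the same exact test.

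The make-up of the family shifted accordingly. The summed level of the 4 genes was between 64.3 and 77.6 TPM in the controls and between 514 and 743 TPM in the treated samples. IFI6 held 25.8 ± 19.2% of it in the controls and 69.1 ± 7.80% at 200 ng/ml (SD, n = 4). The share of IFI27L1 went from 24.2 ± 8.52% to 3.84 ± 1.66% and that of IFI27L2 from 21.2 ± 11.3% to 2.01 ± 1.20%, while IFI27 held 28.8 ± 2.75% before and 25.1 ± 4.99% after. In the exact permutation test within line sets the shares of IFI6, IFI27L1 and IFI27L2 each gave the smallest possible p of 0.0556, and that of IFI27 gave 0.222. A smaller share of IFI27L1 or IFI27L2 is not a lower level, since the sum rose.

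**Figure D3:**
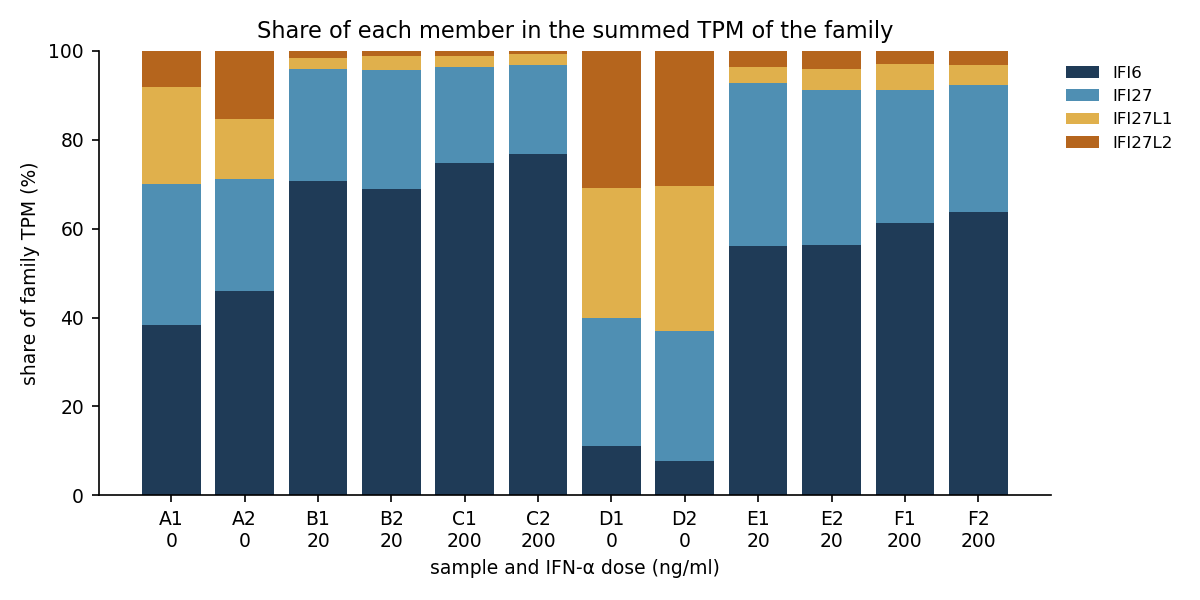
Stacked bars of each member's share, in percent, of the summed family TPM in each of the 12 samples, labelled with the IFNα dose in ng/ml. The IFI6 share lies between 7.67% and 46.0% in the controls and between 61.1% and 76.7% at 200 ng/ml.

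Transcripts of IFI6 and IFI27 were called one by one less firmly than the gene sums. Of the 37 annotated transcripts of the family 27 passed the filter, and 7 of these were called higher at 200 ng/ml, 2 of IFI6 and 5 of IFI27, where 0.343% of the 75876 transcripts tested were called higher. For IFI27L1 and IFI27L2, 0 of 6 and 0 of 4 tested transcripts were called by edgeR. At 2-fold and an unadjusted p under 0.05, 15 of the 27 passed, where 6.33% of all transcripts tested did. They include IFI27L1-202, with more reads after treatment, and IFI27L1-203, with fewer. Also among them are IFI27-202, at 0 TPM in all controls, and IFI27-206, there at most at 0.09 TPM. These 2 passed the filter only through treated samples, so the direction of their change was fixed in advance. Other forms of the 15 were also low in the controls. Among them, IFI27-207 was at most at 1.1 TPM there, and the called IFI27-208 and IFI27-203 at most at 0.59 and 1.46 TPM. Their direction may have been fixed in the same way, which was not tested. DESeq2 called 11, none of them of IFI27L1 or IFI27L2, and its share over all transcripts is not given here. The 7 calls fell to 0 in the fit with the replicate block and to 0 when only the groups compared were fitted, and numbered between 2 and 8 when 1 sample was left out. They were 2 without D1 or without D2, 3 without A1, F1 or F2, and 4 without A2, B1 or B2.

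The transcripts of IFI6 code for proteins of 130 codons (IFI6-202), 134 codons (IFI6-203) and 138 codons (IFI6-201). IFI6-202 was the most abundant, at 10.2 ± 9.83 TPM in the controls, 246 ± 17.4 TPM at 20 ng/ml and 230 ± 90.1 TPM at 200 ng/ml (SD, n = 4), and its log2 change at 200 ng/ml was 4.75 ± 0.53 (SE, edgeR adjusted p-value 0.0117). IFI6-203 went from 5.62 ± 4.63 TPM in the controls to 190 ± 64.1 TPM at 200 ng/ml, and its log2 change of 5.03 ± 1.12 was not called. IFI6-201 was the rarest and had 0 counts in both untreated D samples, so no fold is given for it, and its level at 200 ng/ml was 15.9 ± 3.90 TPM.

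The balance of these forms at 200 ng/ml was not the same in the 2 line sets. IFI6-203 made up 55.7% and 63.4% of the IFI6 TPM in C1 and C2, against 33.8% and 31.8% at 20 ng/ml in the same line set. In D-F it made up 32.3% and 26.8% at 200 ng/ml and 27.4% and 29.7% at 20 ng/ml. The change in this share was not tested. In the controls the division varied most: IFI6-203 held 87.2% in D1 and 0 in D2, where the whole gene had 60 and 41 counts. The 3 forms are alike in length, from 822 to 841 bases, and the division of reads among them is an estimate on which the gene count does not depend.

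Among IFI27 transcripts the 3 with the highest mean level were IFI27-205, a retained intron form of 2439 bases, and the coding forms IFI27-215 (644 bases) and IFI27-212 (505 bases). IFI27-205 went from 4.10 ± 1.83 TPM in the controls to 39.3 ± 13.8 TPM at 200 ng/ml (log2 change 3.12 ± 0.38, SE, edgeR adjusted p-value 0.0155). IFI27-212 went from 3.05 ± 1.47 to 26.5 ± 12.5 TPM (log2 change 2.92 ± 0.36, edgeR adjusted p-value 0.0181). IFI27-215 went from 5.49 ± 6.93 to 23.0 ± 6.57 TPM and was not called. The 4 retained intron forms of IFI27 together held 38.0 ± 15.0% of its TPM in the controls and 43.7 ± 8.14% at 200 ng/ml (SD, n = 4), a difference smaller than the spread between samples.

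A1 stood apart in this division. Retained intron forms held 16.0% of the IFI27 TPM in A1, or 28.8% of its counts, and between 29.8% and 51.8% of the TPM in the other samples. IFI27 had 139 counts in A1 and 195 in A2 but the TPM was higher in A1, at 24.7 against 16.2. TPM sums over transcripts of different lengths, so a level in TPM moves with the division of reads between short and long forms, and the count-based fits do not.

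**Figure D4:**
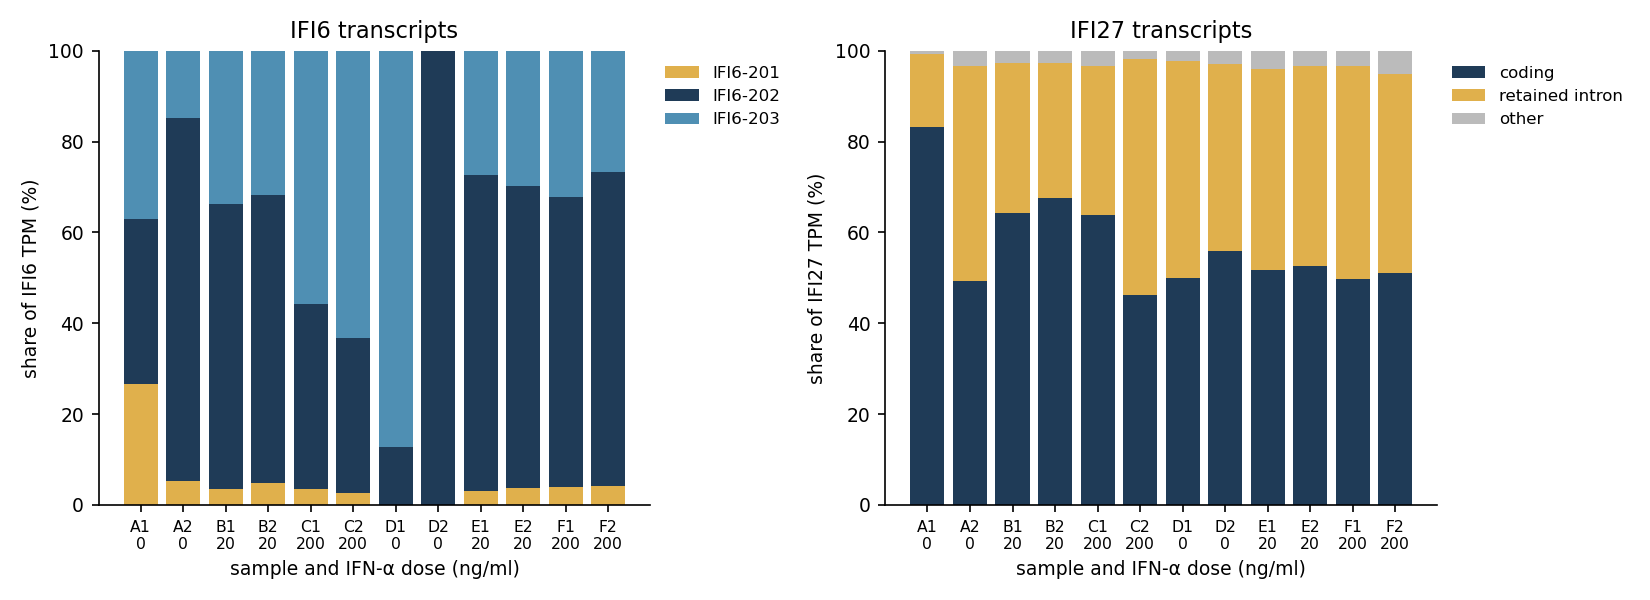
Stacked bars of the share of gene TPM, in percent, held by the 3 IFI6 transcripts (left) and by coding, retained intron and other transcripts of IFI27 (right) in the 12 samples, labelled with the IFNα dose in ng/ml. IFI6-203 exceeds 55% in C1 and C2, and the untreated samples A1, D1 and D2 depart most from the others.

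For IFI27L1, the 3 transcripts with the highest mean level were IFI27L1-203, IFI27L1-209 and IFI27L1-206, all coding. IFI27L1-203 was at 6.28 ± 2.41 TPM in the controls and 2.73 ± 2.68 TPM at 200 ng/ml (SD, n = 4). IFI27L1-209 was at 3.60 ± 3.27 and 7.05 ± 7.19 TPM and IFI27L1-206, which starts inside the gene, at 1.24 ± 1.44 and 4.45 ± 5.54 TPM. IFI27L1-206 lay at most at 0.07 TPM in A-C and between 2.27 and 11.4 TPM in D-F. For IFI27L2, the coding form IFI27L2-201 was at 7.97 ± 6.80 TPM in the controls and 6.34 ± 4.45 TPM at 200 ng/ml, followed by the retained intron forms IFI27L2-204 and IFI27L2-203, whose mean over the 12 samples was lower.

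On chromosome 14 IFI27 was the only gene called among its neighbours. Within 50 kb of IFI27, IFI27L1 or IFI27L2 lie DDX24, OTUB2 and PPP4R4 and 2 assembled loci without an annotated name, all of which passed the filter. DDX24, an RNA helicase gene on the other strand with 36 bases between it and IFI27L1, had a log2 change of 0.27 ± 0.11 at 200 ng/ml (adjusted p-value 0.17 in edgeR). The log2 change was 0.08 ± 0.13 for OTUB2, a deubiquitinase gene, and 0.06 ± 0.13 for PPP4R4, a phosphatase subunit gene. An assembled locus inside IFI27L1 on the same strand, with 9 to 33 counts per sample, had a log2 change of 0.69 ± 0.39, and another that overlaps the most upstream start of IFI27, with 0 to 18 counts, had 0.06 ± 0.84. None of the 5 was called, which is near the shares over all genes tested, 1.58% called higher and 0.552% lower. Around IFI6 the 7 genes within 50 kb had at most 7 counts in any sample and did not pass the filter, among them AL445490.1, which overlaps IFI6 on the other strand and had 0 counts in all samples.

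**Figure D5:**
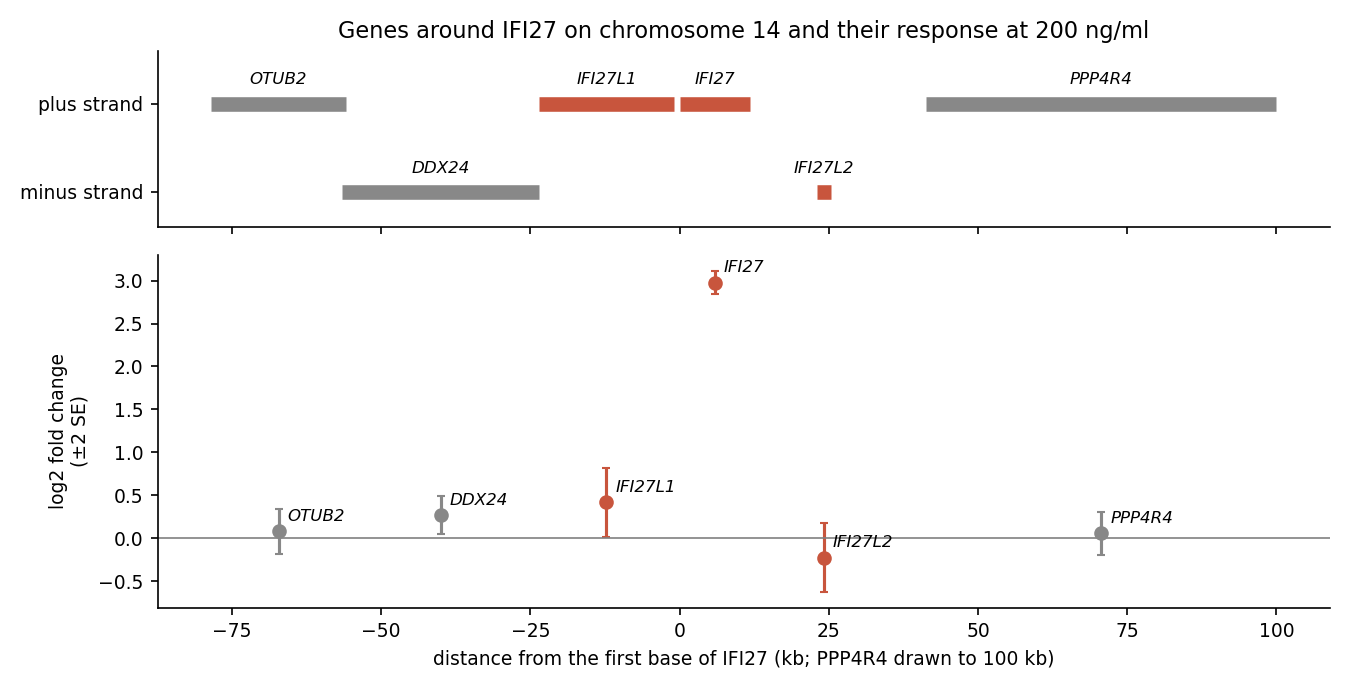
Genes on the plus and minus strands of chromosome 14 by distance in kb from the first base of IFI27 (top) and their log2 fold change at 200 ng/ml with bars of ±2 SE from edgeR (bottom), family members in red. IFI27 stands at 2.98, and the 5 other named genes lie between -0.23 and 0.42, while the 2 assembled loci are not drawn.

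The genes whose levels were most like those of each member over the 12 samples were found by Pearson's r of log2(TPM + 1) among 17362 genes with a mean of at least 1 TPM. For IFI6 these were HIST3H2A, IRF9, OAS2, IFIT3 and USP18, with r from 0.992 to 0.996. For IFI27 they were IFIT5, PARP14, IFI35, OAS3 and STAT2, with r from 0.974 to 0.98. For IFI27L1 they were RNF216P1, CLK4, RAD54L2, GTPBP4 and MOCOS (r from 0.958 to 0.974), and for IFI27L2 ALS2CL, ACOX3, AC244154.1, STX1A and GNAO1 (r from 0.985 to 0.989). Among the members, r was 0.932 between IFI6 and IFI27 and 0.774 between IFI27L1 and IFI27L2, but -0.15 between IFI6 and IFI27L2. The points share line set, dose and library, and the correlations are a description, so the responses of genes chosen this way are not counted.

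STAT2 and IRF9 of ISGF3 and the genes ISG15 and USP18 were called higher, while the receptor chains and kinases were not called. In a list of 10 receptor, kinase, ISGF3 and feedback genes 4 were called higher at 200 ng/ml and 0 lower by edgeR. Over all genes tested 1.58% were called higher and 0.552% lower. The list had a median log2 change of 0.21 beside -0.01 over all genes. The largest changes were those of ISG15, a ubiquitin-like modifier (4.20 ± 0.16), USP18, which removes it and restrains the receptor (4.16 ± 0.11), IRF9 (2.69 ± 0.13) and STAT2 (1.80 ± 0.08). IFNAR1, IFNAR2, JAK1, TYK2, SOCS1 and SOCS3 were not called. The response at 200 ng/ml also differed between line sets for ISG15 (D-F minus A-C 2.81 ± 0.30, edgeR adjusted p-value 0.00416). USP18 was called for this difference too (1.24 ± 0.21, adjusted p-value 0.0252), and the other genes of the list were not. A larger response in D-F was thus not particular to IFI6. All 30 genes of a list of antiviral effectors were called higher at both doses, with a median log2 change of 2.97 at 200 ng/ml. The shares over all genes were 1.58% at 200 ng/ml and 0.963% at 20 ng/ml. The list holds known interferon-stimulated genes and was chosen with earlier results of these data known. Its count is therefore a scale for the members and not a test. Set beside them, IFI6 was exceeded by 5 of the 30 at 200 ng/ml and by 4 at 20 ng/ml, and IFI27 stood near the middle, exceeded by 15 and by 13.

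Known partners of the family were not called. Of HSPA5, SKP2, XPO1 and NR4A1, 0 of 4 were called by edgeR or DESeq2. Over all genes tested edgeR called 1.58% higher and 0.552% lower at 200 ng/ml, so 0 of 4 is near those shares. HSPA5 (0.30 ± 0.05, adjusted p-value 0.00688) and XPO1 (0.26 ± 0.05, adjusted p-value 0.00988) passed the adjusted p-value but not the 2-fold threshold at 200 ng/ml, and these were also the only 2 at an unadjusted p under 0.05, which 23.9% of all genes tested had. SKP2 (-0.14 ± 0.15) and NR4A1 (0.08 ± 0.17) did not pass either. In a list of 14 genes of mitochondrial apoptosis 0 were called by edgeR or DESeq2 at 200 ng/ml. This is also near the shares called over all genes. In this list 6 had an unadjusted p under 0.05, beside the same 23.9% of all genes, and the median log2 change was 0.12. Past 2-fold among the 6 was BCL2, which opposes apoptosis, at -1.22 ± 0.46 (adjusted p-value 0.14). Its level was low, with a mean of 0.915 TPM in the controls and 0.798 TPM at 200 ng/ml. BCL2A1 of the same list went the other way past 2-fold, at 1.74 ± 0.78 (adjusted p-value 0.227), and was not among the 6. The lowest level of BCL2A1 was 0 TPM at each dose, and its mean was 6.26 TPM in the controls and 7.31 TPM at 200 ng/ml. Past the adjusted p-value alone, PMAIP1, a death-promoting member of the BCL2 family, had a value of 0.79 ± 0.14 (adjusted p-value 0.00608), BAX -0.56 ± 0.09 (0.00455) and CASP9 -0.84 ± 0.20 (0.0287), all under 2-fold.

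The labelled cell type was checked against marker genes. Of 8 squamous epithelial markers 7 were at 1 TPM or more in all 12 samples, and the exception, KRT14, lay between 41.9 and 49.2 TPM in A-C and at most at 0.254 TPM in D-F. The summed level of 4 leukocyte markers was at most 2.33 TPM, with PTPRC, CD3E and LYZ below 1 TPM throughout, and that of 5 fibroblast markers was between 3.57 and 13.0 TPM, nearly all from COL1A1. Of 3 endothelial markers, CDH5 was at 15.2 to 21.7 TPM in A-C and at most at 0.156 TPM in D-F, and PECAM1 and VWF were below 1 TPM in all samples. The doses overlapped in each list, and the summed squamous markers, for example, were between 886 and 2200 TPM in the controls and between 1092 and 2673 TPM at 200 ng/ml. Their part in the differences between line sets was not tested.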

How the data were processed

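RNA of 12 samples of the HNSCC lines Cal27 and HN30 was sequenced by the authors after removal of rRNA with strand-specific libraries on the HiseqXTen platform. The submitters' processing notes list Trimmomatic 0.36, HISAT2 2.1.0, StringTie 1.3.3b and GRCh38.p10, and the annotation release and the strand setting of the counting are not given in the sources used here. For genes and for transcripts alike, the authors deposited the estimated count as a whole number with no scaling for depth. The authors also deposited TPM and FPKM values scaled for length and depth, of which FPKM was not used here. The estimated count of each member equalled the sum over its transcripts.

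Samples were grouped by title and letter. The doses of 20 and 200 ng/ml come from the description of the design. The members, gene lists, alternatives and tests were chosen with earlier results of these data known.

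The estimated counts were fitted in edgeR 4.0.16 under R 4.3.3 (TMM, filterByExpr, quasi-likelihood test, Benjamini-Hochberg adjustment), all 6 combinations of line set and dose together, for 19944 genes and again for 75876 transcripts. A contrast of doses is the mean over the 2 line sets. Each SE was obtained as the size of the log2 fold change over the root of its F statistic. The fits were tested on simulated counts. DESeq2 1.42.0 was an alternative. Ratios used a pseudocount of 0.01 TPM, and doses were exchanged within line sets for the permutation tests, all exact and two-sided. Python 3.11.15 with pandas 2.3.3, numpy 2.4.6, scipy 1.17.1 and matplotlib 3.10.9 was used for the rest.

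Libraries held from 10517448 to 16056734 estimated counts in all. Genes had a common biological coefficient of variation of 0.196, and transcripts of 0.837. The 2 replicates of each letter differed beyond counting noise (chi-square per degree of freedom from 13.4 to 19.0).

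Transcript names, types and sequences came from GENCODE release 29 on GRCh38, in which all 37 member transcripts were found at the deposited positions, and promoters from RefSeq on GRCh38.p14, matched by symbol for all 4 members. Named genes were the 4 members, their 3 most abundant transcripts each, all genes within 50 kb, the 5 genes with the highest r to each member, the 4 largest changes of the receptor list, all partners and the called genes of the apoptosis list. Since none of the last was called, the 3 named there were chosen after their values were seen, as were BCL2 and the uncalled transcripts of IFI27L1 given by name. A gene of the receptor list and a leukocyte marker are not reported here, and the values of both lists were computed without them. Alternatives were DESeq2, RLE normalization, no filter, only the groups compared, a replicate block, an unadjusted p, a larger pseudocount, other units and each sample left out.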

Additional observations from a re-analysis of the deposited data

Results flagged for a closer look

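The response of IFI6 differed between the line sets at both doses, by an interaction term in the edgeR fit over all genes. At 200 ng/ml the log2 fold change was 2.18 ± 0.20 (SE) higher in D-F than in A-C, with an adjusted p-value of 0.00232, and at 20 ng/ml it was 2.07 ± 0.20 higher, with an adjusted p-value of 0.0028. Untreated D1 and D2 had 60 and 41 counts of IFI6 and untreated A1 and A2 had 193 and 248, and all 4 samples with 20 ng/ml lay between 364 and 391 TPM. The fold changes share these control samples with the untreated difference. Outside the family, ISG15 and USP18 were also called for a difference between line sets at 200 ng/ml.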

How the results depend on the processing

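IFI6 and IFI27 were called at 200 and 20 ng/ml, and at 200 ng/ml in each line set, and IFI6 alone for the difference between line sets, under DESeq2, RLE normalization, no filter on low counts, only the groups compared, the replicate block, an unadjusted p and each sample left out. In untreated D against A, IFI6 and IFI27L2 were called under all of these except without A1, where IFI27L1 took the place of IFI27L2. The 7 member transcripts called at 200 ng/ml were the exception: 15 with an unadjusted p, 11 with DESeq2, 0 with only the groups compared and 0 with the replicate block, and from 2 to 8 with 1 sample left out. The cause was not tested. Replicate numbers did not pair the samples, since the correlation of the deviations of same-numbered samples lay between -0.04 and 0.06, and the replicate block changed no call of a member gene. With pairs by replicate number the log2 ratio of IFI6 to IFI27 changed by 2.02 with an exact permutation p of 0.125, the smallest that 16 sign changes allow.

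Several small values of uncalled members turned direction when 1 sample was left out, with adjusted p-values of at least 0.72 where the direction turned. With 1 sample left out the log2 change of IFI27L2 at 20 ng/ml ranged from -0.13 to 0.13 (0.13 without A2, 0.03 without B2), and at 200 ng/ml in D-F from -0.062 to 0.011, above 0 without F1 only. That of IFI27L1 at 200 ng/ml in A-C ranged from -0.25 (without A2) to 0.58, and its difference between line sets at 20 ng/ml from -0.39 to 0.44, below 0 without A1 (-0.39), B1 (-0.09) or E2 (-0.15). The uncalled changes of IFI27L1 and IFI27L2 at 200 ng/ml kept their direction but ranged from 0.24 to 0.65 and from -0.46 to -0.055, and the change in their log2 ratio ranged from 0.36 to 1.16. The change in the share of IFI27 in the family was -3.68 percentage points in TPM (exact permutation p 0.222) and -6.55 in counts (0.0556). Depth limits IFI27L1 and IFI27L2, with 17 to 177 counts per sample, and IFI6 in the untreated D samples, with 60 and 41 counts.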
